A study of Mus musculus with 412 samples.

Results

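The voltage-gated calcium channel subunits described here are 10 genes of the 45513 in the expression table of single mouse colonic sensory neurons. They were chosen by name. They comprise the pore genes Cacna1a, Cacna1b, Cacna1e, Cacna1c, Cacna1d, Cacna1h and Cacna1i and the auxiliary alpha2delta genes Cacna2d1, Cacna2d2 and Cacna2d3. Each symbol matched 1 row of the table through its Ensembl identifier on the GRCm38 mouse genome, so all 10 members were found. The neurons came from C57BL/6J mice whose colon wall had been injected with the retrograde tracer Fast Blue, and ganglia were taken 3 to 10 days after that surgery. Dorsal root ganglia of the thoracolumbar (TL, T10 to L1) and the lumbosacral (LS, L5 to S2) spine were dissociated into separate cultures, single traced neurons were picked by hand, and polyA RNA was sequenced from each. The labels name no genetic change and no treatment other than the tracer for any group, nor the animals' age, and the neurons had passed through dissociation and culture before picking.

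A voltage-gated calcium channel is built around a pore protein (alpha1), which opens on depolarization and lets calcium into the cell. In sensory neurons, the N-type and P/Q-type pores sit mainly at presynaptic terminals and trigger transmitter release, R-type pores contribute to release and to firing, L-type pores couple activity to gene expression, and T-type pores open near the resting potential and shape excitability. The alpha2delta proteins are extracellular and raise the number of channels that reach the membrane, and alpha2delta-1 and alpha2delta-2 are the binding sites of gabapentin and pregabalin, drugs used for neuropathic and visceral pain.

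The table held 325 of the 399 labelled neurons, 167 TL and 158 LS, on 6 library plates. Plate 1 held 5 TL neurons and no LS neuron in the table. Values are given as TPM, here the deposited value taken off its log2 scale and rescaled to a sum of 1e6 in each neuron. TPM is a value per gene length, so levels of different genes can be set side by side. A neuron was counted as having a gene at 10 TPM or more. Neurons were also split by Gfra3, the receptor for artemin, and Piezo2, a mechanically gated channel, each at 10 TPM or more. Among TL neurons, 82 had Gfra3 and not Piezo2 (Gfra3 neurons), 55 had Piezo2 and not Gfra3 (Piezo2 neurons), 18 had both and 12 had neither. Among LS neurons the numbers were 76, 65, 7 and 10. Gfra3 lay between 5 and 20 TPM in 6 of the 325 neurons and Piezo2 in 27, so few Gfra3 calls but more Piezo2 calls lay near the limit of 10. The neurons just inside and just outside that limit had 10.98 and 9.63 TPM of Gfra3 and 10.9 and 9.99 TPM of Piezo2. The 2 genes that define the classes are not results here.

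Recovered reads per neuron ran from 416007 to 12058968, and genes above 0 from 6291 to 17193. The median number of genes above 0 was 13497 in TL and 13976 in LS neurons, but 9459 in the 22 neurons with neither class gene. All 10 sensory neuron markers had a median of at least 10 TPM in both segments. Satellite glia markers, summed over 10 genes, had a median of 2594 TPM in TL (lowest 51.8, highest 99948) and 1531 TPM in LS neurons (lowest 6.75, highest 61848). In LS Gfra3 neurons that median was 182 TPM, against 2509 in TL Gfra3, 2419 in TL Piezo2 and 2070 in LS Piezo2 neurons. Much of the sum in Piezo2 neurons was 1 gene, S100b, with medians of 1327 TPM in TL Piezo2 and 1311 in LS Piezo2 neurons. Its medians were 49.0 TPM in TL Gfra3 and 10.1 in LS Gfra3 neurons. Apoe, another of these markers, had medians of 1915 TPM in TL Gfra3, 874 in TL Piezo2, 44.0 in LS Gfra3 and 223 in LS Piezo2 neurons. In LS neurons 3 of the 10 markers, Kcnj10, Sox10 and Cdh19, had a median of 0 TPM, and in TL neurons none did. The part of glial RNA and of the number of genes detected in the differences below was not tested. The labels name no mouse or culture, so each group counts as 1 sample, no difference below has a test or a p-value, and intervals on shares are exact 95% binomial intervals for counting error only.

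Across all neurons, Cacna2d1 and Cacna1b were the subunits found most widely. Cacna2d1 was at 10 TPM or more in 86.2% of neurons (interval 81.9 to 89.7%) and Cacna1b in 79.4% (74.6 to 83.7%). These were followed by Cacna1e at 49.2% (43.7 to 54.8%) and Cacna1h at 39.1% (33.7 to 44.6%). The intervals of Cacna2d1 and Cacna1b overlapped, and so did those of Cacna1e and Cacna1h, while those of Cacna1b and Cacna1e did not. Cacna1c at 16.0%, Cacna2d3 at 13.5% and Cacna2d2 at 11.1% had overlapping intervals, Cacna1a reached 4.62%, and no neuron had Cacna1d or Cacna1i at the limit. Taking 3 counts as the limit that a count of 0 allows, 0 of 325 neurons allows a share of up to 0.923%, and the upper end of the exact interval is 1.13%. A neuron had a median of 3 members at 10 TPM or more, and the largest number in any neuron was 8.

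**Figure D1:**
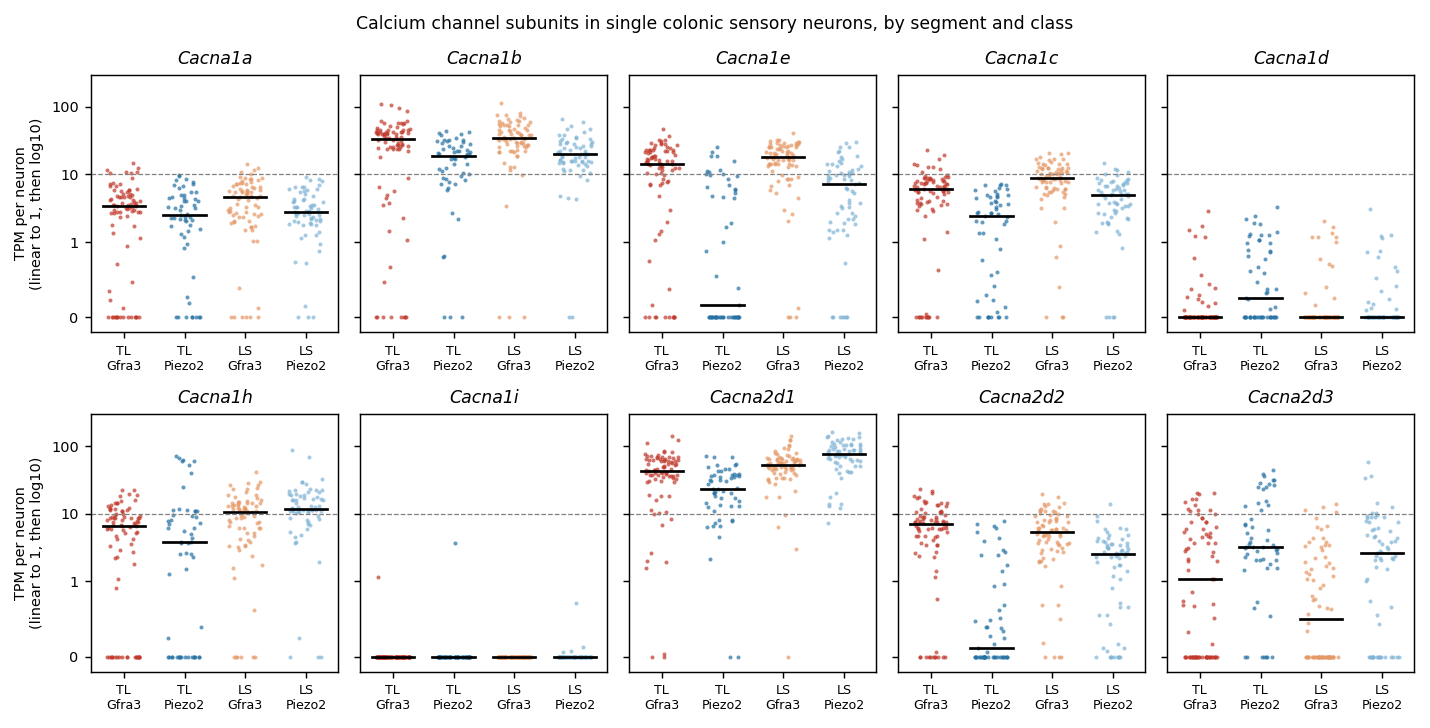
Each point is 1 neuron's TPM on an axis that is linear to 1 and then log10, for the 10 subunit genes in the 4 segment and class groups; black bars are medians and the dashed line is 10 TPM. Cacna1e was at 0 in 27 of 55 TL Piezo2 neurons, a small set of TL Piezo2 neurons stood above 40 TPM for Cacna1h, and Cacna2d1 had its highest median in LS Piezo2 neurons.

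Among the presynaptic pore genes, Cacna1b, which encodes the N-type pore targeted by ziconotide, had the highest level. It lies on chromosome 2 at 24603887 to 24763152, minus strand. Its level ran from 0 to 111 TPM in TL neurons with a median of 25.2, and from 0 to 113 in LS neurons with a median of 27.0. The 2 medians lay close together, while the share of neurons at 10 TPM or more was 71.3% in TL (63.8 to 78.0%) and 88.0% in LS (81.9 to 92.6%). Cacna1b was at 0 in 24 of the 325 neurons and had a median of 309 recovered reads, so its values rest on many reads in most neurons. The 22 neurons with neither class gene had a median of 3.79 TPM of Cacna1b, beside their median of 9459 genes above 0.

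Cacna1e, the R-type pore gene (chromosome 1, 154390731 to 154884501, minus strand), was less widely found and more uneven. In TL neurons it ran from 0 to 47.5 TPM with a median of 7.80, and in LS neurons from 0 to 41.7 with a median of 11.3. It was at 0 in 49 TL and 17 LS neurons, and in Piezo2 neurons of the TL segment 27 of 55 were at 0. Cacna1a, the P/Q-type pore gene (chromosome 8, 84388440 to 84640246, plus strand), had low levels throughout. Its median was 3.00 TPM in TL (highest 14.7) and 3.22 TPM in LS neurons (highest 14.5). It was above 0 in most neurons, with a median of 44 reads, and 0 of the 120 Piezo2 neurons reached 10 TPM, which by the same limit of 3 counts allows a share of up to 2.50% (upper end of the exact interval 3.03%).

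Of the L-type pore genes, Cacna1c was present at moderate levels and Cacna1d was close to the detection limit. Cacna1c (chromosome 6, 118587240 to 119196418, minus strand) ran from 0 to 26.1 TPM in TL neurons with a median of 3.97, and from 0 to 20.9 in LS neurons with a median of 6.31. Its share at 10 TPM or more was 5.99% in TL (2.91 to 10.7%) and 26.6% in LS (19.9 to 34.2%), and these intervals did not overlap. Without the 47 neurons with few genes (under 9559 above 0) the shares were 7.25% in TL and 29.3% in LS. Cacna1d (chromosome 14, 30039939 to 30491455, minus strand) was at 0 in 234 of 325 neurons and never exceeded 6.14 TPM. Its median was 0.26 TPM in TL Piezo2 neurons and 0 in the other three groups, and its highest read count in any neuron was 87. Dcp1a, which overlaps Cacna1d on the other strand, had 15.3 reads per neuron on average, and the sources used here do not say whether reads were counted by strand.

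The T-type pore genes split in the same way. Cacna1i (chromosome 15, 80287238 to 80398279, plus strand) was at 0 in 317 of 325 neurons, and its highest value was 8.22 TPM in 1 TL neuron with neither class gene. Cacna1h (chromosome 17, 25374285 to 25433783, minus strand), the T-type gene best known in touch and pain afferents, ran from 0 to 71.7 TPM in TL neurons with a median of 5.12, and from 0 to 86.8 in LS neurons with a median of 11.2. Its share at 10 TPM or more was 21.0% in TL (15.1 to 27.9%) and 58.2% in LS (50.1 to 66.0%). The LS share was the higher one and the intervals were far apart. A limit of 40 TPM, chosen after the values were seen, was reached by 9 neurons. Of these, 6 were TL Piezo2, 2 were LS Piezo2 and 1 was an LS Gfra3 neuron. The TL Piezo2 neurons thus included a few with the highest Cacna1h levels in that segment while 17 of the 55 were at 0.

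The alpha2delta genes were dominated by Cacna2d1 (chromosome 5, 15934691 to 16374511, plus strand). In TL neurons it ran from 0 to 143 TPM with a median of 36.3, and in LS neurons from 0 to 164 with a median of 58.2. Its share at 10 TPM or more was 80.2% in TL (73.4 to 86.0%) and 92.4% in LS (87.1 to 96.0%). It was at 0 in 8 neurons only and had a median of 671 recovered reads, the most of any member. Cacna2d2 (chromosome 9, 107399612 to 107529343, plus strand) had a median of 1.82 TPM in TL (highest 22.9) and 3.46 TPM in LS neurons (highest 19.3). Cacna2d3 (chromosome 14, 28904943 to 29721864, minus strand), whose loss in flies and mice alters heat nociception, had a median of 2.51 TPM in TL (highest 44.6) and 0.93 TPM in LS neurons (highest 57.5). Cacna2d3 was low in most neurons and high in a few. Its share at 10 TPM or more was 18.6% in TL (13.0 to 25.3%) and 8.23% in LS (4.45 to 13.7%), so the TL share was the higher one and the intervals just overlapped. The gene lengths behind the TPM of Cacna2d3 (3695 bases), Cacna1d (9242) and Cacna1e (24813) were inferred from the values, where GENCODE M21 has 8720, 12621 and 25228. Dividing the same reads by the GENCODE length put Cacna2d3 at 10 TPM or more in 4.31% of all neurons. The shares were then 6.59% in TL and 1.90% in LS neurons. Its level relative to other genes thus depends on the length used, while its ratios between groups do not. Reads on bases outside the authors' gene model were not counted, so a count on the GENCODE gene could give other shares.

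The promoter windows of RefSeq on GRCm38.p6, from 250 bases before to 50 bases after a transcript start, are shown for the most abundant member (Cacna2d1), for the alpha2delta gene of the few TL Piezo2 neurons (Cacna2d3) and for a pore gene whose mean differed more than 2-fold between the Gfra3 and Piezo2 neurons of both segments (Cacna1e). They lie at chr5:15934441-15934740 (plus strand), chr14:29721815-29722114 (minus strand) and chr1:154725871-154726170 (minus strand), the last inside the GENCODE gene. Capitals mark the GC box GGGCGG, searched on both strands (CCGCCC on the other), with overlapping matches counted.
Cacna2d1: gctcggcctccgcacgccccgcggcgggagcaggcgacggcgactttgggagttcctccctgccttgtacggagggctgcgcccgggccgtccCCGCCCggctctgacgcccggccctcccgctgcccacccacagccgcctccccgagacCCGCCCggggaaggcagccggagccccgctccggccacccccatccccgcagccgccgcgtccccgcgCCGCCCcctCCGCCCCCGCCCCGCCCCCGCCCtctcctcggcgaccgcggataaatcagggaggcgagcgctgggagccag
Cacna2d3: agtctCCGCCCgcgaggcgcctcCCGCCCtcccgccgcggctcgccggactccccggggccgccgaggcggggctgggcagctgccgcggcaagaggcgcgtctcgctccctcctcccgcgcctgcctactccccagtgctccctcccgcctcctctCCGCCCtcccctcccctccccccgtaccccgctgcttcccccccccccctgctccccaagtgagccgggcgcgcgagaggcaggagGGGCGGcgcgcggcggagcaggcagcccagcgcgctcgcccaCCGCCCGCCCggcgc
Cacna1e: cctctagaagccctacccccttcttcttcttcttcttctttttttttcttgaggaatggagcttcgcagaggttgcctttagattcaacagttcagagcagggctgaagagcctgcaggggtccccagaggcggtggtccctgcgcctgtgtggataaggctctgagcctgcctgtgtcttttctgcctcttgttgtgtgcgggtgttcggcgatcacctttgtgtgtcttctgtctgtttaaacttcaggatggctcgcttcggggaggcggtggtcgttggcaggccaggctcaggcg
The Cacna2d1 window held 7 GC boxes and 42 CG pairs, the Cacna2d3 window 6 and 41, and the Cacna1e window 0 and 11. Over all 32851 windows of this length, 35.7% held a GC box and the median number of CG pairs was 7. Windows of 8 of the 10 members were in the RefSeq table. Cacna2d1 and Cacna2d3, with like numbers of CG pairs, had medians of 46.1 and 1.68 TPM over all neurons. The matches describe the letters only.

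The first comparison asked whether TL and LS neurons differed in their subunits. A gene was counted as past the fold when its mean was at least 10 TPM in 1 group, the ratio of the means was at least 2, and the direction was the same in each of plates 2 to 6. None of the 10 members was past the fold, and 4 of them had a mean high enough to be counted. Over all 7752 genes at that level, 4.72% were past the fold, 2.46% higher and 2.26% lower in LS. Cacna2d1 had a mean of 61.7 TPM in LS and 36.4 in TL neurons, 1.70-fold higher in LS, and Cacna1h 12.1 against 7.68, 1.57-fold higher. Both were higher in LS in each of the 5 plates, as were 19.7% of all genes at that level. Cacna1e had means of 12.8 TPM in LS and 9.87 in TL (higher in LS in 4 of 5 plates) and Cacna1b 30.2 and 26.1 (3 of 5 plates), so their direction varied between plates. Below a mean of 10 TPM, Cacna1c was 1.53-fold higher in LS in 5 of 5 plates and Cacna2d3 was 1.74-fold higher in TL in 4 of 5. Of all genes at that level, 12% were lower in LS in each plate. The median log2 ratio of the 4 members at that level was 0.52, and that of all genes at that level was 0.04.

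**Figure D2:**
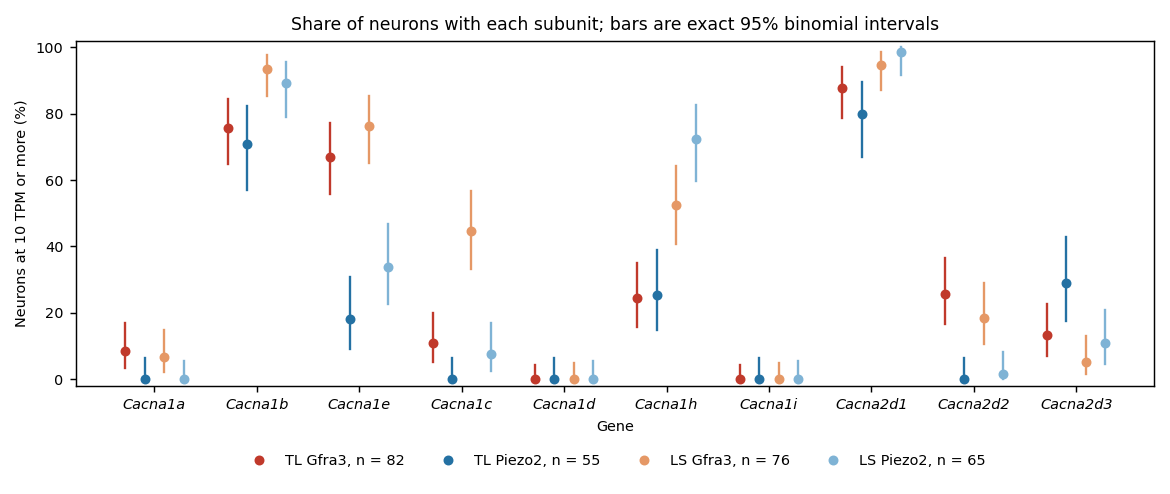
Points are the percent of neurons at 10 TPM or more for each gene (x axis), with exact 95% binomial intervals as bars, in TL Gfra3 (n = 82), TL Piezo2 (n = 55), LS Gfra3 (n = 76) and LS Piezo2 neurons (n = 65). Cacna1e was more frequent in Gfra3 than in Piezo2 neurons in both segments, and Cacna1h was more frequent in LS than in TL neurons in both classes.

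The second comparison asked whether Gfra3 and Piezo2 neurons of 1 segment differed. In both segments Cacna1e was past the fold, higher in Gfra3 neurons, and it was the only member that was. In TL neurons Cacna1e ran from 0 to 47.5 TPM in Gfra3 (median 14.5) and from 0 to 25.2 in Piezo2 neurons (median 0.16). The ranges overlapped, but 67.1% of Gfra3 (55.8 to 77.1%) and 18.2% of Piezo2 neurons (9.08 to 30.9%) had 10 TPM or more. The means were 14.5 and 4.23 TPM, 3.42-fold higher in Gfra3 neurons, with a range of 1.61 to 9.53 over the plates. In LS neurons the medians were 18.1 and 7.31 TPM (highest 41.7 and 29.7), and 76.3% (65.2 to 85.3%) and 33.8% (22.6 to 46.7%) had 10 TPM or more. The LS means were 17.8 and 8.29 TPM, 2.14-fold higher in Gfra3 neurons, with plate ratios from 1.04 to 3.23. The LS ratio lay just above the limit of 2 and was 1.91 without plate 4, where 17 Gfra3 and 18 Piezo2 LS neurons lay. The LS call was also lost without the 81 neurons highest in satellite glia markers (ratio 2.33) and with values rescaled without mitochondrial genes and the largest rRNA gene (ratio 2.11), where the plates no longer shared 1 direction. In each segment 1 of the 10 members was past the fold and 4 were at that level. Of all genes, 4.96% were past it upward and 5.57% downward in TL (10.5% in all), and 3.98% and 5.32% in LS (9.31% in all), so 1 gene is too few to set the members apart.

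Other members leaned the same way in both segments without passing. Cacna1b was 1.74-fold higher in Gfra3 than in Piezo2 neurons in TL (means 32.6 and 18.7 TPM) and 1.70-fold in LS (38.0 and 22.4 TPM), in 5 of 5 plates each time, beside 14.3% of all genes higher in each plate in TL and 17.6% in LS. Cacna1c was 2.32-fold higher in Gfra3 neurons in TL (6.16 and 2.65 TPM) and 1.84-fold in LS (9.28 and 5.04 TPM), also in 5 of 5 plates, but its means stayed under 10 TPM. Cacna2d2 was 6.47-fold higher in TL (7.26 and 1.12 TPM) and 2.30-fold in LS (6.08 and 2.64 TPM), again in each plate and again under that mean. Of the 35 Gfra3 and 1 Piezo2 neurons with 10 TPM or more of Cacna2d2, 21 and 0 were from TL. Cacna2d3 ran the other way, 2.39-fold higher in Piezo2 neurons in TL (9.26 and 3.88 TPM) and 3.00-fold in LS (5.34 and 1.78 TPM), in 5 of 5 plates, beside 21.8% of all genes lower in each plate in TL and 21% in LS. S100b, 1 of the satellite glia markers, was also 11.2-fold higher in Piezo2 neurons in TL and 46.4-fold in LS, and its part in these differences was not tested.

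Cacna1h gave different answers by mean and by median in TL neurons. Its mean was 6.88 TPM in TL Gfra3 and 11.3 in TL Piezo2 neurons, 1.64-fold higher in Piezo2 neurons, while its median was 6.70 in Gfra3 and 3.78 in Piezo2 neurons. The highest value was 22.8 TPM in the Gfra3 and 71.7 in the Piezo2 neurons. The difference of mean log2(TPM + 1) turned the direction of this comparison and was 0.16 higher in Gfra3 neurons. In LS neurons the means were 10.8 and 15.2 TPM and the medians 10.6 and 11.8, both higher in Piezo2 neurons, where 72.3% (59.8 to 82.7%) against 52.6% (40.8 to 64.2%) had 10 TPM or more.

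Cacna2d1 had opposite directions in TL and LS neurons. In TL neurons its mean was 45.6 TPM in Gfra3 and 27.1 in Piezo2 neurons, 1.68-fold higher in Gfra3 neurons. In LS neurons its mean was 54.8 TPM in Gfra3 and 78.4 in Piezo2 neurons, 1.43-fold higher in Piezo2 neurons. The TL direction held in 5 of 5 plates, though in plate 2 the means were 40.4 and 40.3 TPM and nearly equal, and the LS direction held in 5 of 5. The difference between the segments was not tested.

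Within a class, the segments were compared again, which takes the share of each class out of the comparison. It does not match the neurons by subtype. The authors defined subtypes after excluding cells with satellite glia genes, which are kept here. The authors report Piezo2 in non-peptidergic and neurofilament subtypes found in both segments, and in a neurofilament subtype populated almost only by LS neurons. They report Gfra3 in peptidergic subtypes of both segments and in a peptidergic subtype that is nearly all LS. Segment and subtype therefore cannot be told apart within a class here. In Piezo2 neurons 1 member, Cacna2d1, was past the fold, and it was higher in LS. It ran from 7.24 to 164 TPM in LS Piezo2 (median 76.2) and from 0 to 70.4 in TL Piezo2 neurons (median 23.5). The lower quartile in LS, 56.2 TPM, lay above the upper quartile in TL, 37.7 TPM, although the ranges overlapped. The ratio of means was 2.89, with plate ratios from 1.87 to 3.51. Of all 7883 genes at that level, 4.69% were past the fold upward and 2.94% downward (7.64% in all), and 17.4% were higher and 12.8% lower in each plate. The median number of genes above 0 was 14383 in LS Piezo2 and 13654 in TL Piezo2 neurons, and without the 47 neurons with few genes the ratio was 2.87. Without the 81 neurons highest in satellite glia markers it was 2.77. Schwann cell markers, summed over 6 genes, had a median of 524 TPM in LS Piezo2 (0.81 to 2394) and 1464 TPM in TL Piezo2 neurons (50.8 to 2075), with Prx and Mag at a median of 0 in both, and their part in this difference was not tested. With deposited values that were not rescaled it was 2.93, but the plates did not all have that direction and the call was lost.

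In Gfra3 neurons none of the 10 members was past the fold between segments, where 3.44% of all genes were, 1.88% higher and 1.56% lower in LS. Cacna2d1 was 1.20-fold higher in LS Gfra3 neurons (54.8 and 45.6 TPM), Cacna1h 1.57-fold (10.8 and 6.88 TPM) and Cacna1e 1.23-fold (17.8 and 14.5 TPM), in 5 of 5 plates each, beside 16.9% of all genes at that level that were higher and 7.7% that were lower in each plate. The share of neurons with Cacna1c at 10 TPM or more was 44.7% in LS (33.3 to 56.6%), and 9 of 82 TL Gfra3 neurons reached it (5.14 to 19.8%). The satellite glia markers of these groups also differed, with medians of 182 and 2509 TPM. Cacna1h was more frequent in LS than in TL neurons in both classes, at 52.6% against 24.4% of Gfra3 and 72.3% against 25.5% of Piezo2 neurons. In Piezo2 neurons its mean ratio was 1.35 with 3 of 5 plates higher in LS, with a highest value of 71.7 TPM in TL and 86.8 in LS. Cacna2d3 was higher in TL in both classes by the mean, at 3.88 against 1.78 TPM in Gfra3 and 9.26 against 5.34 TPM in Piezo2 neurons.

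**Figure D3:**
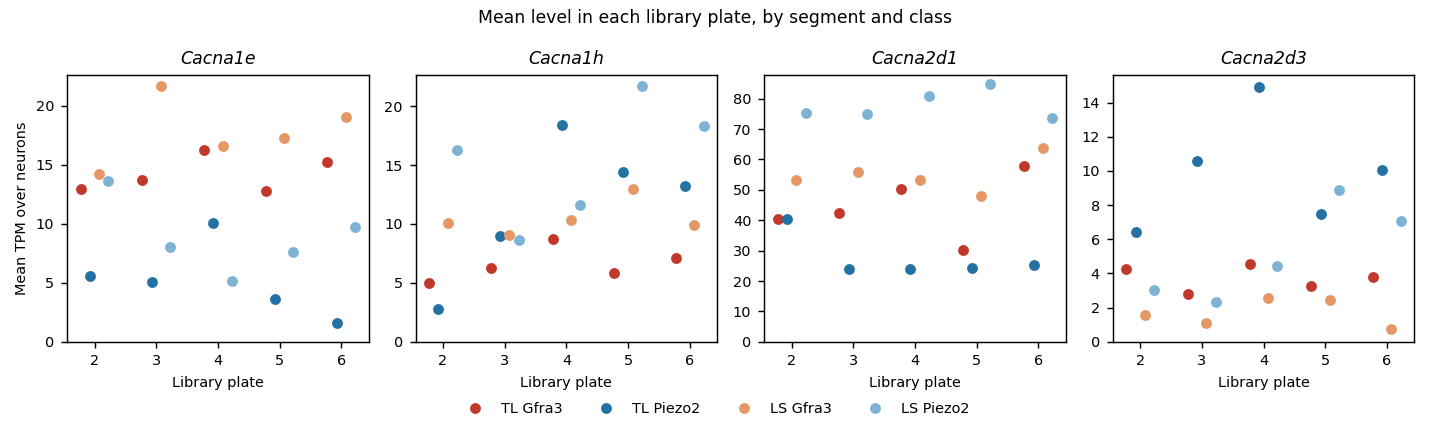
Mean TPM (y axis) of Cacna1e, Cacna1h, Cacna2d1 and Cacna2d3 in each of library plates 2 to 6 (x axis), with 1 point for each segment and class group. The LS Piezo2 points of Cacna2d1 lay highest in each plate, and the Gfra3 points of Cacna1e lay above the Piezo2 points of the same segment in each plate, by a small margin in LS neurons of plate 2.

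Because TPM is per length, the subunit with the highest level could be read within each neuron. At least 1 pore gene reached 10 TPM in 270 of 325 neurons. Cacna1b was the highest pore gene in 225 of them, 83.3% (78.3 to 87.6%), followed by Cacna1h in 31, Cacna1e in 13 and Cacna1c in 1. In TL Gfra3 neurons Cacna1b led in 60 of 63, and Cacna1h in none. In TL Piezo2 neurons Cacna1b led in 34 of 43 and Cacna1h in 9, 20.9% (10.04 to 36.0%). In LS Piezo2 neurons Cacna1b led in 40 of 62 and Cacna1h in 18, 29.0% (18.2 to 41.9%), and in LS Gfra3 neurons Cacna1h led in 4 of 73. Of the 31 neurons led by Cacna1h, 4 were not Piezo2 neurons.

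At least 1 alpha2delta gene reached 10 TPM in 297 neurons. Cacna2d1 was the highest in 272, 91.6% (87.8 to 94.5%), Cacna2d3 in 22 and Cacna2d2 in 3. Of the 22 neurons led by Cacna2d3, 17 were TL, and 13 of these were among the 52 TL Piezo2 neurons counted, 25.0% (14.0 to 38.9%). The other classes with Piezo2 or Gfra3 alone had fewer, with 3 of 64 LS Piezo2, 1 of 75 TL Gfra3 and 0 of 73 LS Gfra3 neurons. These counts rest on the inferred length of Cacna2d3. Dividing the same reads by the GENCODE length was an alternative chosen after seeing the data, and not a recount on the GENCODE gene. Cacna2d3 then led in 8 of 288 neurons, of which 6 were among 49 TL Piezo2, 12.2% (4.63 to 24.8%), and 2 among 64 LS Piezo2 neurons. In TL Piezo2 neurons Cacna2d3 was at 10 TPM or more in 16 of 55, and 8 of these also had Cacna2d1 at that level and 8 also had Cacna1h. None of these 16 had Cacna1e at 10 TPM or more, and 10 TL Piezo2 neurons did. With the same reads and GENCODE lengths, Cacna2d3 was at that level in 10 of the 55 and Cacna1e in 8. These counts are small, and the lack of overlap was not tested.

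**Figure D4:**
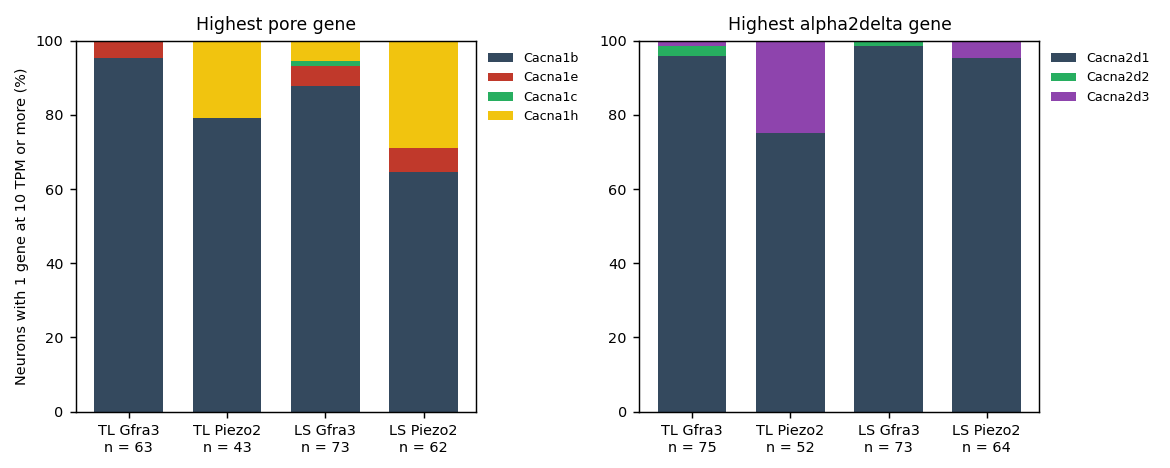
Bars give the percent of neurons in which a gene had the highest TPM among the pore genes (left) or the alpha2delta genes (right), out of the neurons with at least 1 such gene at 10 TPM or more (n under each bar). Cacna1h led in 20.9% of TL Piezo2 and 29.0% of LS Piezo2 neurons, and Cacna2d3 led in 25.0% of TL Piezo2 neurons (12.2% with the same reads and its GENCODE length).

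A total of 19 neurons had no member at 10 TPM or more, 15 of them TL and 4 LS. They had a median of 9258 genes above 0, against 13804 in the other neurons, and 10 of the 19 had neither Gfra3 nor Piezo2. Among the 22 neurons with neither class gene, those without a member had a median of 9479 genes above 0 and the others 9459. In TL Gfra3 neurons these medians were 7772 and 13709. A lack of the subunits in the 19 neurons cannot be told apart from the low number of genes detected, and its part was not tested.

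Across the 325 neurons the levels of several pore genes varied together. Spearman's rho, given as a description without a p because neurons share cultures, plates and depth, was 0.75 between Cacna1b and Cacna1c, 0.72 between Cacna1b and Cacna1e and 0.71 between Cacna1e and Cacna1c. A total of 12 of the 45 pairs had a rho of at least 0.5, and 9 did when rho was averaged within plates. Without the 47 neurons with few genes 5 pairs did, and the 3 pairs named kept a rho of 0.72, 0.66 and 0.66. The members' rho with the number of genes above 0 ran from -0.02 (Cacna1i) to 0.48 (Cacna2d1), and its part in these relations was not tested. Cacna2d3 had a rho of -0.20 with Cacna1e over all neurons, and the value varied between the groups, at -0.38 in TL Piezo2, -0.42 in LS Piezo2, 0.38 in TL Gfra3 and 0.08 in LS Gfra3 neurons.

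**Figure D5:**
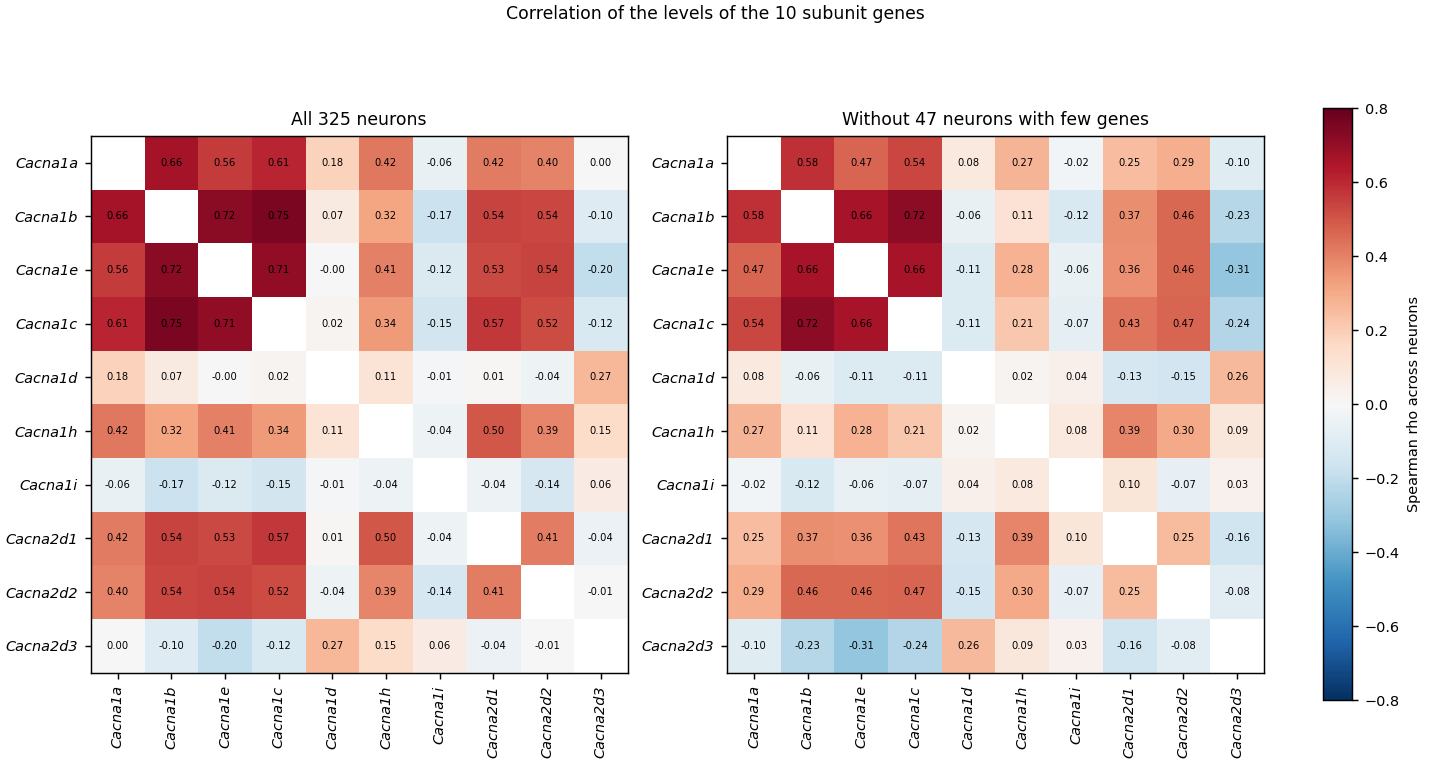
Each cell gives Spearman's rho between the levels of 2 subunit genes, over all 325 neurons (left) and without the 47 neurons with few genes (right), with colour from -0.8 to 0.8. The 6 pairs among Cacna1a, Cacna1b, Cacna1e and Cacna1c had values from 0.56 to 0.75 over all neurons, and Cacna2d3 had values from -0.20 to 0.27, the highest with Cacna1d and the next, 0.15, with Cacna1h.

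The genes whose levels were most like each member across neurons were sought among 10283 genes present at 10 TPM in at least 10% of neurons. For Cacna1e these were Atp2b4, a plasma membrane calcium pump (rho 0.82), Abcc4, an efflux transporter (0.81), and Celf4, an RNA-binding protein (0.76). For Cacna1b they were Dpysl3 (0.76), Cyfip2 (0.75) and the member Cacna1c (0.75), and for Cacna1c they were Cacna1b, the neuropeptide gene Adcyap1 (0.73) and the transcription factor Zbtb20 (0.72). Cacna1h was most like Cntn2, a neuronal adhesion protein (0.70), the calcium pump Atp2b2 (0.66) and the mitochondrial enzyme Sdha (0.64). Cacna2d1 was most like the synaptic vesicle protein Sv2a (0.74), Pgm2l1 (0.71) and the monoamine transporter Slc29a4 (0.69), and Cacna2d2 most like Slc7a14 (0.67), the alpha2A adrenergic receptor Adra2a (0.66) and the potassium channel Kcnk2 (0.65). Cacna1a was closest to the long noncoding RNAs Meg3 (0.73), Snhg11 (0.72) and Miat (0.70). No gene reached a rho of 0.5 with Cacna1d, Cacna1i or Cacna2d3.

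The remaining pore and alpha2delta genes, Cacna1f, Cacna1g, Cacna1s and Cacna2d4, had means of at most 0.12 TPM in both segments. Of the 4 beta subunit genes, which bind the pore inside the cell and aid its traffic, 3 had a mean of 10 TPM or more, led by Cacnb3 with 206 TPM in TL and 180 in LS neurons, while Cacnb1 had 15.1 and 16.7. None of the 4 was past the fold between the segments over all neurons, but Cacnb4 was 3.36-fold higher in Piezo2 than in Gfra3 neurons of the TL segment (41.0 and 12.2 TPM). Cacnb4 was also 2.78-fold higher in TL than in LS Piezo2 neurons (41.0 and 14.8 TPM). In that comparison Cacna2d1 was higher in LS.

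Of the 8 gamma subunit genes, most of which encode partners of AMPA receptors, 2 reached a mean of 10 TPM in a segment. Cacng5 was 5.70-fold higher in LS than in TL neurons (20.4 and 3.57 TPM), 6.51-fold in Piezo2 and 5.41-fold in Gfra3 neurons. Cacng3 was 15.8-fold higher in Gfra3 than in Piezo2 neurons of the TL segment (23.0 and 1.46 TPM) and 2.48-fold in LS (11.1 and 4.48 TPM). Of the 15 regulator genes, Stac2, an adaptor of L-type channels, was 16.9-fold higher in Piezo2 neurons in TL and 22.2-fold in LS, Cabp1, a calcium-binding protein, 6.08-fold and 2.69-fold, and Rem2, a GTPase that inhibits these channels, was past the fold in TL (15.1 TPM in Piezo2 and 0.17 in Gfra3 neurons). In LS neurons the Rem2 means were 6.30 TPM in Piezo2 and 0.49 in Gfra3 neurons, in the same direction in 5 of 5 plates but under the mean of 10 TPM needed to be counted. The related adaptor Stac had means of 155 TPM in TL and 178 in LS neurons and was not past the fold. Unlike Stac2, its means were higher in Gfra3 than in Piezo2 neurons, at 197 and 87.1 TPM in TL and 224 and 122 TPM in LS. In TL the ratio of these means was above 2, but the plates did not all have that direction.

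Among 10 release site partners, 8 had a mean high enough to be counted and 2 were past the fold between segments, beside 4.72% of all genes. Rims2, an active zone scaffold that binds the pore, was 2.24-fold higher in LS neurons (24.0 and 10.7 TPM) and Syt2, a fast calcium sensor, was 2.95-fold higher in TL (22.6 and 7.65 TPM). Rims2 was 3.20-fold higher in LS than in TL Gfra3 neurons. Rimbp2 was 21.9-fold higher in Gfra3 than in Piezo2 neurons of the TL segment (10.5 and 0.48 TPM). Its LS means were 5.81 TPM in Gfra3 and 0.52 in Piezo2 neurons, under the mean of 10 TPM needed to be counted. Syt2 was past the fold in both segments, higher in Piezo2 than in Gfra3 neurons (42.5 and 6.12 TPM in TL, 12.2 and 2.90 in LS). In LS neurons Snap25 was past it in that direction (566 and 258 TPM) and Rims2 in the other (9.96 and 36.2 TPM). Over all genes, 10.5% were past the fold between these classes in TL and 9.31% in LS. Of the 6 calcium-activated channel genes, the SK channel Kcnn2 was 5.14-fold higher in LS (13.0 and 2.53 TPM) and 7.87-fold higher in LS than in TL Piezo2 neurons. Kcnn1 was past the fold with its higher mean in TL Piezo2 neurons (17.7 TPM), against TL Gfra3 (2.17 TPM) and against LS Piezo2 neurons (6.42 TPM). Between the Piezo2 neurons of the 2 segments, 7.64% of all genes were past the fold. Kcnn4 was 5.82-fold higher in TL by the mean (11.2 and 1.93 TPM), but its median was 0 TPM in both segments. It was at 0 in 91 of 167 TL neurons, and its highest value was 353 TPM in TL and 33.0 in LS neurons. Of the 10 pump and buffer genes only 2 had a mean high enough to be counted between segments, and neither was past the fold. In TL neurons Atp2b4 was 5.05-fold higher in Gfra3 neurons (34.0 and 6.73 TPM), while Atp2b1 and Atp2b2 were 2.63-fold and 6.90-fold higher in Piezo2 neurons. Atp2b1 (56.1 and 24.4 TPM) and Atp2b2 (15.3 and 4.16 TPM) were past the fold in LS too, higher in Piezo2 neurons. Atp2b4 was not past it in LS, with means of 32.0 TPM in Gfra3 and 18.8 in Piezo2 neurons.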

How the data were processed

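Single-neuron RNA was amplified by Smart-seq2, a full-length method without molecular identifiers, and per the labels the reads were processed with bcl2fastq 2.15.0.4, STAR 2.4.1 and featureCounts 1.4.4 on GRCm38.p3. The authors deposited 1 table of log2(x + 1) values for 45513 genes in 325 neurons, where x was found to be reads per gene length times a factor of each neuron. Labelled neurons without a column and the bath samples were not used here. The members and gene lists were chosen with earlier results of these data known. The 10 members, the lists by counts, and for each member the 3 genes of highest rho at 0.5 or more, were named by rule.

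Here x was rescaled to a sum of 1e6 per neuron (TPM). The authors had left out low-quality cells before they deposited the table. Before clustering into subtypes they also excluded cells with satellite glia genes. Those cells are among the 325 neurons used here and were not identified. Symbols came from a table that matched 44585 identifiers and left 928 unmatched. Positions came from GENCODE M21, a later annotation of GRCm38 than the authors used. Whole reads behind the values were recovered within a tolerance of 1e-06. The GENCODE exon length gave whole reads for 26057 genes, and the length was inferred from the values for 8712. In the 26057 genes, 100% of values above 0 lay within 0.001 of a whole read. Those genes were chosen by giving whole reads, so this share is no separate check of the recovery. Counting by strand is not given in the sources used here, and reads from overlapping genes on the other strand, 0.0 to 21.2 per neuron on average, cannot be told apart.

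Groups are 1 sample each, so no test was run. Means, medians, shares with exact Clopper-Pearson 95% intervals and ratios of means with plates 2 to 6 as strata (at least 3 neurons of each group) were computed with Python 3.11.15, numpy 2.4.6, pandas 2.3.3 and scipy 1.17.1. The fold rule and the read recovery were checked on simulated data. Alternatives tried were pseudocounts of 1 and 0.1, a fold of 1.5, no filter, other scalings, CPM of recovered reads, class limits of 5 and 20, share limits of 5 and 20, reads thinned to 400000 per neuron, leaving out neurons by genes or glial markers over 3 median absolute deviations from the median (times 1.4826), and leaving out each plate.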

Additional observations from a re-analysis of the deposited data

Results flagged for a closer look

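Cacna2d1 differed between Gfra3 and Piezo2 neurons in opposite directions in the 2 segments, in each of the 5 plates that hold both. The ratio of the Gfra3 mean to the Piezo2 mean was 1.68 in TL and 0.699 in LS neurons. With deposited values that were not rescaled the ratios were 2.42 and 0.94. The difference between the segments was not tested, and each segment is 1 sample.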

How the results depend on the processing

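No paired analysis was possible because no test was run with 1 sample a group. The ratios within each of plates 2 to 6, which hold neurons of both segments, are given with the results. The count of members past the fold was recomputed under each alternative. Between LS and TL neurons the count of 0 became 2 (Cacna1h and Cacna2d1) with mean log2(TPM + 0.1) and with a fold of 1.5. Between Gfra3 and Piezo2 neurons the count of 1 became 3 in TL and 2 in LS with a fold of 1.5, and 5 in TL and 3 in LS without the filter on low means. It became 2 in TL and 3 in LS with unscaled deposited values, 2 in TL and 0 in LS without mitochondrial genes and the largest rRNA gene (the LS ratio of Cacna1e was then 2.11, without the same direction in each plate), and 4 in TL and 2 in LS with CPM. Between LS and TL Gfra3 neurons the count of 0 became 1 with mean log2(TPM + 0.1), with a fold of 1.5 (Cacna1h both times) and without the filter (Cacna2d3). Between LS and TL Piezo2 neurons the count of 1 became 2 without the filter and 0 with unscaled values, although the ratio of Cacna2d1 was then 2.93 (without the same direction in each plate). Leaving out 1 plate gave 0 to 0 members between segments, 1 to 1 between classes in TL, 0 to 1 in LS (0 without plate 4), 0 to 0 in Gfra3 and 1 to 1 in Piezo2 neurons. Unscaled values moved the median log2 ratio of all genes to 0.48 in TL and 0.40 in LS for Gfra3 against Piezo2 neurons, and to -0.10 for LS against TL over all neurons, -0.18 in Gfra3 and -0.12 in Piezo2 neurons. Without the 81 neurons highest in glial markers, chosen after seeing the data because the planned limit removed 0 neurons, the LS class count was 0 (the ratio of Cacna1e was 2.33) and the other 4 counts were the same.

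The number of members at 10 TPM or more in at least 50% of neurons was 2, and 5 with a limit of 5 TPM. Leaving out 1 plate gave 2 to 3. The same reads were also divided by GENCODE lengths for Cacna1d, Cacna1e and Cacna2d3, again an alternative chosen after seeing the data. The percent of neurons led by Cacna2d3 then fell from 7.41 to 2.78, and that of Cacna1e stayed at 4.81. The pairs with rho of at least 0.5 fell from 12 to 5 without the 47 neurons with few genes. Of 334 log2 ratios recomputed, 332 kept their sign, and the 2 others were those of Cacna1h between TL Gfra3 and Piezo2 neurons with mean log2 values.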
